A study of Mus musculus with 6 samples.

Results

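Ezrin, radixin and moesin are the 3 closely related proteins that fasten membrane proteins to the actin skeleton under the plasma membrane, and merlin is their relative. Their genes are Ezr, Rdx, Msn and Nf2. The 4 genes were taken by symbol from the authors' deposited comparison table, out of 27127 symbols that stood for 1 gene. Each symbol had 1 transcript cluster, the set of probes that measures 1 gene on the array, and the RefSeq accessions of each cluster matched 1 gene. Where a symbol has several clusters, the one used is chosen by its mean signal over all arrays, which here left nothing to choose. Those means were 7.31 for Msn, 8.33 for Ezr, 8.95 for Rdx and 7.71 for Nf2, in log2 units.

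All 6 arrays came from CD11brGFP transgenic mice, in which the CD11b promoter drives RPL10a, a protein of the large ribosomal subunit, fused to Flag and EGFP. That promoter is used by microglia, monocytes, macrophages and neutrophils. Mice aged 2 to 3 months received saline or 5 mg/kg lipopolysaccharide (LPS), the endotoxin of Gram-negative bacteria, and RNA was taken at 24 h by translating ribosome affinity purification, which recovers mRNA bound to the tagged ribosomes. Each group had 3 arrays and each array was made from a pool of 5 mice of both sexes, so the values average over animals. The tag marks ribosomes of the cells in which the promoter is active, and no tissue is named in the labels. Genes of neurons, which are not among those cells, also gave strong signals, as the marker values below show. The values of the 4 members therefore need not be those of tagged cells alone. The genotype was the same in both groups.

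Proteins of this family carry a FERM domain at the N-terminus, which holds membrane proteins and their adaptors. Ezrin, radixin and moesin bind actin through their C-terminus and are opened for this by the membrane lipid PIP2 and by phosphorylation of a C-terminal threonine. Merlin lacks that C-terminal actin-binding site and acts as a tumour suppressor that restrains growth, in part through the Hippo kinases. Moesin is the main family member of leukocytes and of endothelium, ezrin is abundant in epithelia and in the fine processes of astrocytes, and radixin is known from liver canaliculi, hair cell stereocilia and neurons.

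Moesin gave the clearest separation of the 2 groups. Msn stood at 6.86, 6.80 and 6.76 on saline 1, 2 and 3, and at 7.74, 7.67 and 8.04 on LPS 1, 2 and 3 (log2 signal). Every LPS array lay above every saline array, and the gap of 0.81 between the groups was wider than the range within either, 0.10 after saline and 0.36 after LPS. The group means were 6.81 ± 0.05 and 7.82 ± 0.19 (SD, n = 3 each), a difference of 1.01 ± 0.16 (SE), or 2.01-fold. The 95% interval of the difference ran from 0.64 to 1.37. By limma the unadjusted p was 0.000202, the 22nd smallest of 34472 annotated clusters, and the adjusted p was 0.317, so Msn did not pass the threshold of 0.05 over all clusters. At that threshold 0.0029% of all clusters passed, which was 1 cluster. Only 89 of the 34472 clusters, Msn included, had a positive difference at least as large (0.258%).

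Ezrin came second in size and was less regular. Ezr stood at 8.28, 8.07 and 7.73 on the saline arrays and at 8.26, 8.80 and 8.82 on the LPS arrays. LPS 2 and LPS 3 lay above all saline arrays, whereas LPS 1 lay 0.03 below saline 1, so the groups overlapped by that margin. The means were 8.03 ± 0.28 and 8.63 ± 0.32 (SD, n = 3 each) and differed by 0.60 ± 0.22 (SE), or 1.51-fold, with a 95% interval from 0.09 to 1.10. The unadjusted limma p was 0.0254 and the adjusted p was 0.99991. The difference was 0.35 without both arrays numbered 3.

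Radixin showed no direction that held over the arrays. Rdx stood at 9.27, 9.22 and 8.42 on the saline arrays and at 9.26, 8.93 and 8.58 on the LPS arrays. The groups overlapped over most of their range, and array 3 was the lowest of each group. The means of 8.97 ± 0.48 and 8.92 ± 0.34 (SD, n = 3 each) differed by -0.05 ± 0.27 (SE), with a 95% interval from -0.67 to 0.58 (limma adjusted p = 0.99991). This interval overlapped that of Ezr, from 0.09 to 1.10, and the members are compared within arrays below. The sign changed without saline 1 (0.10), saline 2 (0.08) or LPS 3 (0.13).

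Merlin varied most between arrays of the same group. Nf2 stood at 7.40, 7.01 and 8.33 on the saline arrays and at 7.30, 7.61 and 8.62 on the LPS arrays. Array 3 was the highest of each group, and saline 3 lay above LPS 1 and LPS 2. The means of 7.58 ± 0.68 and 7.84 ± 0.69 (SD, n = 3 each) differed by 0.26 ± 0.41 (SE), with a 95% interval from -0.69 to 1.21 (limma adjusted p = 0.99991). The difference was -0.02 without saline 2, -0.13 without LPS 3 and 0.63 without saline 3.

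**Figure D1:**
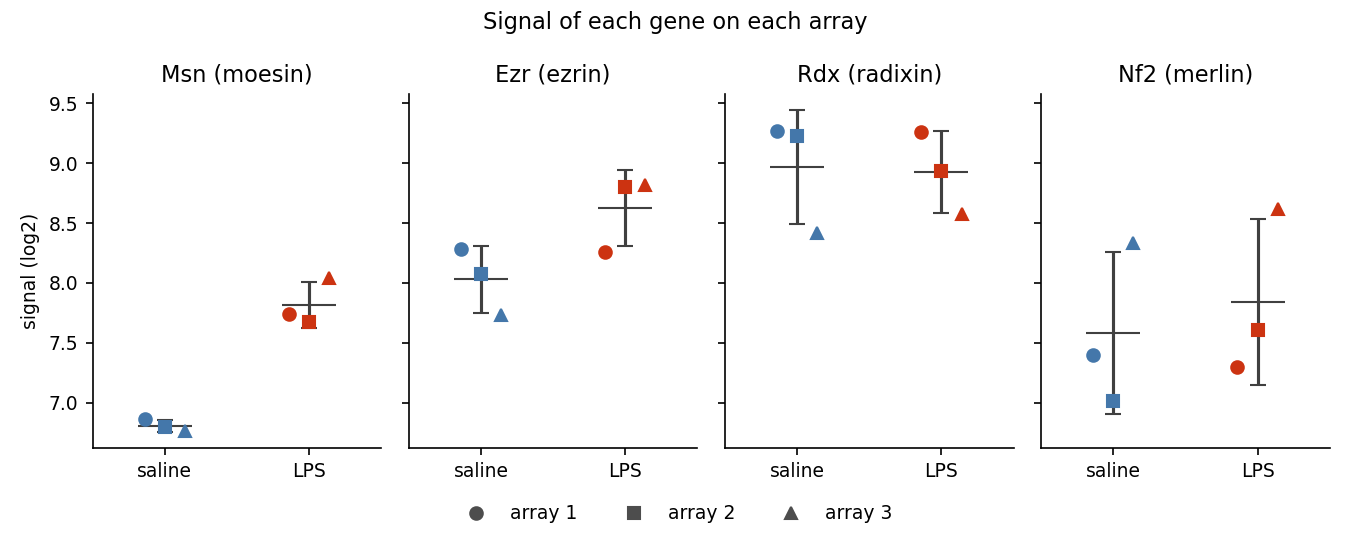
Log2 signal (vertical axis) of Msn, Ezr, Rdx and Nf2 on the 3 saline arrays (blue) and the 3 LPS arrays (red), with the array number as the symbol; horizontal bars are group means and whiskers 1 SD. The Msn groups are apart by 0.81 and Ezr overlaps by 0.03. Array 3 is the lowest of each group for Rdx and the highest of each group for Nf2. Levels of different genes depend on their probes and are not compared.

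Of the 4 genes, 1 had groups that did not overlap with LPS higher, where 3.61% of all clusters did so, and 0 had non-overlapping groups with LPS lower, where 3.1% did. The median difference over all clusters was -0.002, on a scale that RMA equalises between arrays. None of the 4 passed the adjusted threshold by limma, and at an unadjusted p under 0.05 there were 2, Msn and Ezr. Msn kept an unadjusted p under 0.05 in all 15 alternatives, and Ezr lost it in 7, namely the plain test, centring on ribosomal protein genes, and leaving out saline 2, saline 3, LPS 2, LPS 3 or both arrays numbered 3. Of all clusters, 1.49% were higher and 0.772% lower at that unadjusted p. The plain equal-variance test passed none of the 4 either (unadjusted p from 0.000968 for Msn to 0.900 for Rdx).

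**Figure D2:**
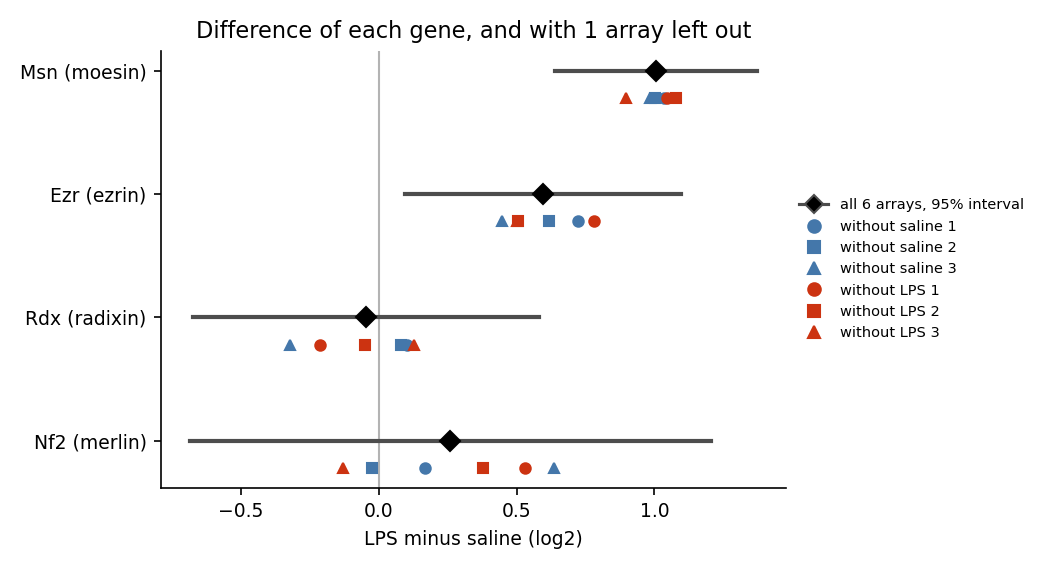
LPS minus saline difference in log2 units (horizontal axis) for each gene; the diamond is the difference over all 6 arrays and the line its 95% limma interval, and the small symbols below are the differences with 1 array left out (colour: group of that array; shape: its number). Msn stays between 0.90 and 1.08 and Ezr between 0.45 and 0.78, whereas Rdx and Nf2 fall on both sides of 0.

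The authors' deposited table gives the same order of sizes except for Rdx. It lists linear folds of 1.87 for Msn, 1.70 for Ezr, 1.11 for Nf2 and -1.25 for Rdx, where the minus sign means lower after LPS. Its group averages are bi-weight means, which give less weight to arrays far from the rest. For Rdx the authors' deposited table gives 9.24 and 8.93 for saline and LPS, close to the group medians of 9.22 and 8.93, while the plain means were 8.97 and 8.92. The 1.25-fold decrease listed for Rdx therefore stands beside a p-value of 0.900 in the same deposited table, and beside 0.969-fold from the plain means.

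Members were also set against each other within each array, which takes out whatever shifts a whole array. Between 6 arrays the 2-sided exact permutation test cannot go below 0.1, so no pair could pass 0.05. The difference of Msn exceeded that of Rdx by 1.05 ± 0.39 (SE), and the Msn minus Rdx values of the LPS arrays all lay above those of the saline arrays (exact p = 0.1, adjusted over 6 pairs 0.45). Msn exceeded Ezr by 0.41 ± 0.22 (exact p = 0.2, adjusted 0.45), and there the groups overlapped. Msn exceeded Nf2 by 0.75 ± 0.51 (exact p = 0.3, adjusted 0.45), and Ezr exceeded Rdx by 0.64 ± 0.39 (exact p = 0.3, adjusted 0.45), both with overlap. Ezr and Nf2 differed by 0.34 ± 0.61 and Rdx and Nf2 by -0.31 ± 0.89 (exact p = 0.6 for both, adjusted 0.6). Within numbers 1, 2 and 3 the excess of Msn over Rdx was 0.88, 1.17 and 1.12 (SE over the numbers 0.09), and that of Msn over Nf2 was 0.98, 0.28 and 0.99 (SE 0.23). Over 3 such pairs an exact test cannot go below 0.25. With these limits the tests settle neither that 2 members responded unequally nor that they responded alike.

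Rdx and Nf2 mirrored each other across the arrays. Array 3 minus the mean of arrays 1 and 2 was -0.83 after saline and -0.52 after LPS for Rdx, and 1.12 and 1.17 for Nf2. Of all annotated clusters, 1.29% lay at least as low on array 3 as Rdx in both groups, and 0.455% at least as high as Nf2, taking for each gene the smaller of its 2 offsets. Msn and Ezr had no such common offset. For Msn it was -0.07 after saline and 0.33 after LPS, and for Ezr it was -0.44 and 0.28. Over all clusters the median offset of array 3 was 0.17 after saline and 0.20 after LPS. What the number 3 stands for is not given in the labels, and its part in these values was not tested.

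The numbers were also used as pairs, although the labels do not say that they are. Within number 1, 2 and 3, LPS minus saline was 0.87, 0.87 and 1.28 for Msn, and -0.03, 0.73 and 1.08 for Ezr. It was -0.004, -0.29 and 0.16 for Rdx and -0.10, 0.59 and 0.29 for Nf2. With the number as a replicate block the SE of Nf2 was 0.16 in place of 0.41 and that of Rdx 0.14 in place of 0.27, while that of Msn changed little (0.14). The blocked 95% intervals were -0.13 to 0.65 for Nf2 and -0.38 to 0.29 for Rdx. No member passed with the block, with limma adjusted p = 0.173 for Msn and 0.789 for Ezr.

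Genes with the most similar pattern were found by Pearson's r over the 6 arrays among 12180 genes with a mean log2 signal of at least 6. With 6 points and so many genes a high r is easily reached, and it is given as a description only. Nearest to Msn were Irf9, a subunit of an interferon-activated transcription factor (r = 0.990), Ifit1, an antiviral protein (r = 0.990), and Lgals9, the gene of galectin-9 (r = 0.989). Irf9 differed by 1.15, Ifit1 by 1.90 and Lgals9 by 0.92 between the groups. Nearest to Ezr were the cadherin gene Cdh18 (r = 0.990), the inhibitory Fc receptor gene Fcgr2b (0.987) and the flap endonuclease gene Fen1 (0.985). Their differences were 0.21, 0.46 and 0.19, all below that of Ezr, and LPS 1 lay below saline 1 for Cdh18 and Fcgr2b as it did for Ezr.

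For Rdx the nearest were Dner, a Notch-related receptor of neurons (r = 0.999), and Atp2a2, a calcium pump (r = 0.997), which differed by -0.09 and -0.05. For Nf2 they were Ube2g2, a ubiquitin-conjugating enzyme, the RNA host gene Snhg4 and Zfp36l1, which promotes mRNA decay (0.999, 0.999 and 0.998), with differences of 0.15, 0.15 and 0.12. In both cases the likeness lay in array 3 against the others more than in the groups. Between members, r was 0.81 for Msn with Ezr and -0.93 for Rdx with Nf2, and between -0.13 and 0.34 for the other 4 pairs.

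**Figure D3:**
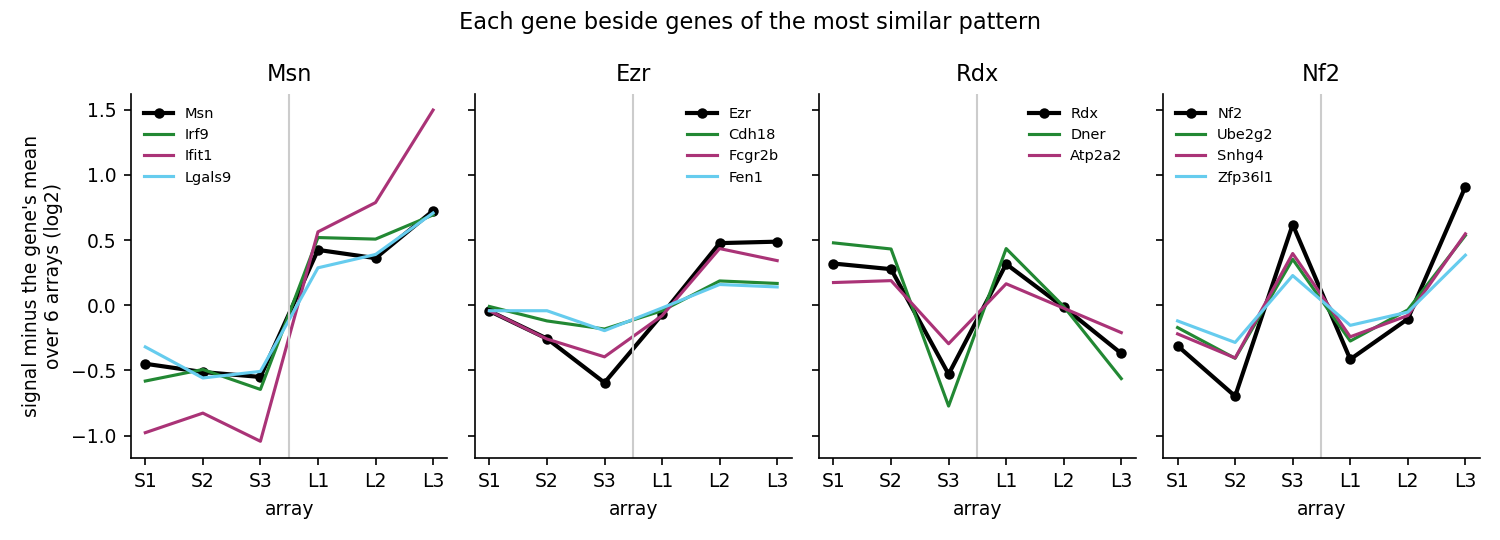
Log2 signal minus the gene's own mean over the 6 arrays (vertical axis) on saline arrays 1 to 3 (S1 to S3) and LPS arrays 1 to 3 (L1 to L3), for each family gene (black) and the genes of the highest Pearson r that are named in the text (colours). The Msn panel steps between the groups, from 6.76 to 6.86 after saline up to 7.67 to 8.04 after LPS. Array 3 is the lowest of each group in the Rdx panel and the highest in the Nf2 panel.

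Msn and Ezr had the largest differences of the 4 members and an unadjusted p under 0.05, and the 250 bases before their annotated starts are shown for what lies there. They come from RefSeq promoter windows on GRCm38.p6, which hold 1 window each for Msn and Ezr and 2 each for Rdx and Nf2. The windows are chrX:96095795-96096044 on the plus strand for Msn and chr17:6782781-6783030 on the minus strand for Ezr, and capitals mark GC boxes (GGGCGG on either strand).
Msn: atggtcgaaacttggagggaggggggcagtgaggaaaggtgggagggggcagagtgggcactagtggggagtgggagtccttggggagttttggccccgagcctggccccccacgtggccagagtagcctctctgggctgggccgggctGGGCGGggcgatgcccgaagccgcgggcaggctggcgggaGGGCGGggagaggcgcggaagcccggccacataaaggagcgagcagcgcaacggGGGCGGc
Ezr: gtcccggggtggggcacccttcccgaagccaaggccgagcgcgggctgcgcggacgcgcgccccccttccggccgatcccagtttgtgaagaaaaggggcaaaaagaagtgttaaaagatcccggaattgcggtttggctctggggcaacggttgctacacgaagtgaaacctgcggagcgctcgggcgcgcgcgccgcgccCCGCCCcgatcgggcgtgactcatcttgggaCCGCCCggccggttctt

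Both windows are rich in G and C, with 71.6% for Msn and 67.2% for Ezr against a median of 52.4% over 32851 windows. The Msn window held 3 GC boxes, which begin 101, 61 and 7 bases before the start, and the Ezr window held 2, at 48 and 17 bases. A GC box was present in 32.7% of all windows. The Nf2 window that adjoins the 5′ end of the annotated gene held 1, and the other Nf2 window and both Rdx windows held 0. The E-box CACGTG was found once, in Msn at 139 bases (6.02% of all windows), and the AP-1 motif TGANTCA once, in Ezr at 32 bases (6.75%). The interferon response core GAAANNGAA, the GAS motif TTCNNNGAA, TATAAA and the TEAD motif CATTCC, all read on both strands, had no match in any of the 6 windows. They were present in 7.13%, 7.02%, 12.4% and 12.6% of all windows. A missing match says only that these letters are not in this window.

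The kinases, phosphatases, partners and relatives of the family were read as 6 lists of genes known from the pathway, 120 genes in all when each is counted once and the members are left out. Of these, 0 passed the adjusted threshold by limma, 4 had LPS arrays above all saline arrays (3.33%, against 3.61% of all clusters) and 6 had them below (5%, against 3.1%). Their median difference was -0.02, against -0.002 for all clusters, and 57 of the 120 were positive, where 49.6% of all clusters were. None of the 120 had a difference as high as that of Msn, where only 0.258% of all clusters did, so none among 120 is near that share.

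Among enzymes that switch the family on, 0 of 20 measured were higher without overlap, against 3.61% of all clusters. Lower without overlap were 3 (15%, against 3.1% of all clusters). The lists were counted without a test. Lrrk2, a kinase linked to Parkinson disease that acts on these proteins, stood at 7.84, 7.91 and 7.98 after saline and at 7.56, 7.34 and 7.45 after LPS. Every LPS array was below every saline array (difference -0.46 ± 0.15 SE, limma adjusted p = 0.99991). Prkcq, a protein kinase C that phosphorylates moesin, differed by -0.27 ± 0.14 and Rock2, a kinase that promotes actomyosin contraction, by -0.17 ± 0.14, also without overlap. The related Rock1 differed by 0.09 ± 0.24. The lymphocyte and general kinases of the C-terminal threonine, Stk10 and Slk, differed by -0.11 ± 0.17 and 0.09 ± 0.17. The list median was -0.02. Phosphatase genes were closer together, with a median of -0.05 over 8, of which 0 were without overlap, against 6.71% of all clusters. Ppp1r12a, the myosin phosphatase subunit that targets moesin, differed by -0.16 ± 0.24 and Ppp1ca, a catalytic subunit, by -0.13 ± 0.23.

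Scaffolds and small GTPases had a median of 0.07 over 11. Rac2, the Rac protein of blood cells, stood at 7.02, 7.19 and 7.49 after saline and at 7.57, 7.98 and 8.39 after LPS. The groups did not overlap, and the difference was 0.75 ± 0.23 (limma adjusted p = 0.99991). Pdzk1, a PDZ scaffold, differed by -0.13 ± 0.15, without overlap. Slc9a3r1, the main PDZ adaptor of ezrin, differed by 0.04 ± 0.15 and Rhoa, the GTPase that acts upstream of Rock1 and Rock2, by 0.07 ± 0.16.

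Membrane proteins that the family anchors had the highest list median, 0.20 over 15 genes. Of these, 11 were positive, where 49.6% of all clusters were, and 1 was higher without overlap (6.67%, against 3.61% of all clusters). Icam1, an adhesion molecule of leukocyte capture, stood at 5.51, 5.07 and 5.31 after saline and at 5.49, 5.79 and 6.40 after LPS. LPS 1 lay within the saline range, and the difference was 0.59 ± 0.25. Selplg, the selectin ligand of leukocytes, went the other way with 8.28, 7.90 and 7.66 after saline and 7.69, 7.04 and 6.50 after LPS. LPS 1 again lay within the saline range (difference -0.87 ± 0.30). Cd44, the hyaluronan receptor, differed by 0.26 ± 0.17 and Icam2 by 0.27 ± 0.21. None of these passed (limma adjusted p = 0.99991 for each).

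On the merlin side, the 28 genes of the Hippo pathway had a median of 0.004. Without overlap, 0 were higher (against 3.61% of all clusters) and 2 were lower (7.14%, against 3.1%). Those were Frmd6, a FERM protein that acts upstream of the Hippo kinases (-0.21 ± 0.15), and Ankrd1, a gene that YAP is known to induce (-0.21 ± 0.14). Ankrd1 was dim, from 4.34 to 4.64, where the array medians were 5.15 to 5.42. Cyr61 and Ctgf, listed beside Ankrd1, differed by 0.08 ± 0.26 and -0.07 ± 0.17, both with overlap. The kinases Lats1 and Lats2 differed by 0.12 ± 0.14 and 0.09 ± 0.15, and Yap1 by 0.06 ± 0.15. Of 39 other FERM domain genes measured, 2 were higher without overlap (5.13%, against 3.61% of all clusters). These were Epb4.1l4b (0.29 ± 0.15) and Fermt3, the kindlin of blood cells (0.18 ± 0.15). The 1 lower was Frmd6 again (2.56%, against 3.1% of all clusters). The median of that list was -0.07.

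**Figure D4:**
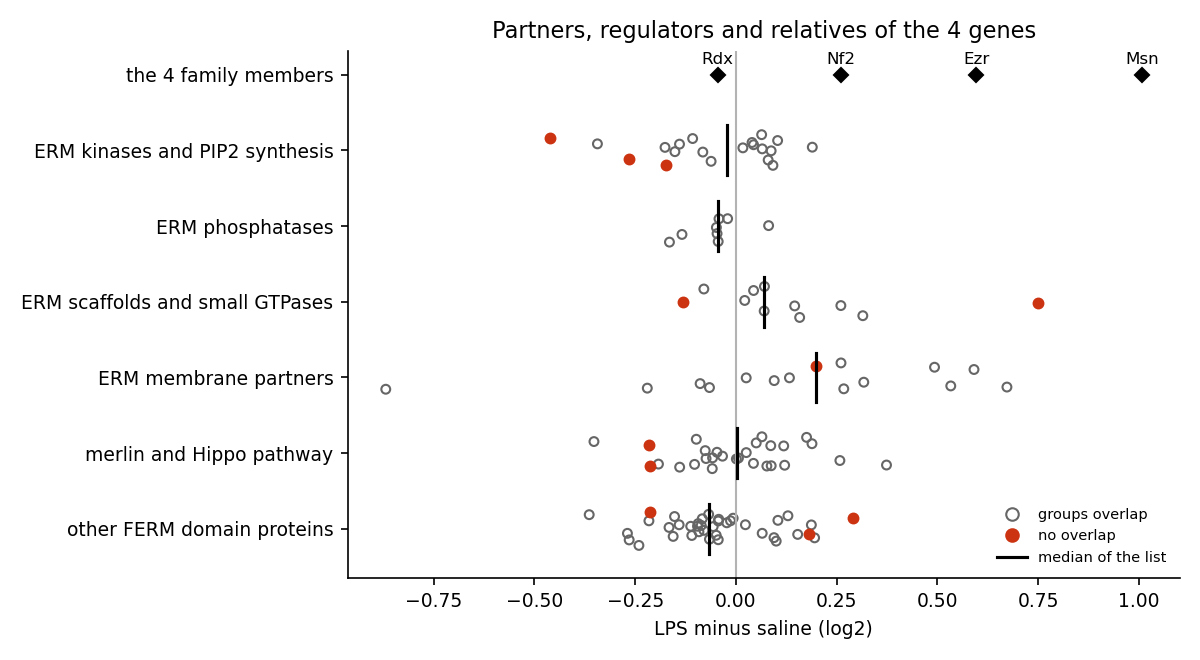
LPS minus saline difference in log2 units (horizontal axis) for the 4 family members (diamonds) and for each gene of the 6 lists (points; filled red where the groups do not overlap; vertical offsets within a list have no meaning), with list medians as bars. The highest gene of the lists is Rac2 at 0.75, and Msn is at 1.01, which 0.258% of all clusters reach.

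Markers of the cells that could contribute RNA were read beside these genes. In bulk RNA of this kind, more cells of a type and more RNA per cell cannot be told apart. Itgam, the gene of CD11b, differed by 0.35 ± 0.17 without overlap, and Rpl10a, whose protein carries the tag, by 0.20 ± 0.31. The 12 microglia markers include Itgam. Their mean log2 signal ran from 6.42 to 6.71 on the saline arrays and from 6.13 to 6.46 on the LPS arrays. Itgam was the 1 positive marker of the 12, and 2 were lower without overlap (16.7%, against 3.1% of all clusters). Of all clusters, 49.6% had a positive difference. Markers of 1 cell type were read on the same 6 arrays, so their signs are not independent. Over 10 endothelial markers the mean ran from 5.67 to 5.79 and from 5.74 to 6.12, with 8 of 10 positive. Of these, 2 were higher without overlap (20%, against 3.61% of all clusters). Over 9 astrocyte markers it ran from 8.02 to 8.24 after saline and from 8.27 to 8.53 after LPS, with no overlap and 7 of 9 positive. Gfap, the astrocyte filament gene, was the 1 astrocyte marker without overlap (1.19 ± 0.28 SE), or 11.1%, against 3.61% of all clusters. Over the other 8 the mean ran from 7.95 to 8.22 and from 8.08 to 8.30, with overlap. Leaving Gfap out was chosen after seeing the data. Over 10 neutrophil markers the mean ran from 4.17 to 4.47 and from 4.45 to 5.00, with 9 of 10 positive. Of these, 1 was higher without overlap (10%, against 3.61% of all clusters). It was S100a9, which differed by 1.22 ± 0.24 (SE, limma adjusted p = 0.663).

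Marker means were also read on single LPS arrays. On LPS 1 the endothelial mean (5.74) was below that of saline 3 (5.79), and the neutrophil mean (4.45) was below that of saline 2 (4.47). On LPS 2 and LPS 3 both means were above those of every saline array (5.83 and 6.12 for endothelium, 4.80 and 5.00 for neutrophils). The neutrophil gene S100a9 was above all saline arrays on LPS 1 too (4.71, against 3.82, 4.05 and 4.02 on saline 1, 2 and 3). On LPS 1 the mean over the 9 astrocyte markers with Gfap (8.32) was above that of every saline array, of which the highest was 8.24. The part of these cells in the results was not tested. Neuron markers ran from 10.88 to 11.12 after saline and from 10.91 to 11.06 after LPS, with 4 of 10 positive. On saline 1 the neuron gene Snap25 stood at 13.43, where the array median was 5.17 and the highest signal 14.02. On LPS 1 it stood at 13.48, where the highest signal was 14.01. The purified RNA thus gave strong signals for neuron genes. Which cells the values of Msn, Ezr, Rdx and Nf2 came from was not tested. The signals carry no detection call, and no marker was read as absent. The 5 monocyte markers measured ran from 4.12 to 4.32 and from 4.13 to 4.58, with 4 of 5 positive. Of these, 1 was higher without overlap (20%, against 3.61% of all clusters), Plac8 (0.50 ± 0.17 SE). The lymphocyte markers ran from 4.64 to 4.77 and from 4.58 to 4.74, with 3 of 8 positive and 1 lower without overlap (12.5%, against 3.1% of all clusters). Oligodendrocyte markers ran from 9.50 to 9.86 after saline and from 9.33 to 9.79 after LPS, with 2 of 8 positive. Mural cell and fibroblast markers ran from 6.67 to 6.94 and from 6.89 to 7.09, with 5 of 8 positive. Without overlap, 2 were higher (25%, against 3.61% of all clusters) and 1 was lower (12.5%, against 3.1%). Markers of choroid plexus and ependyma ran from 7.005 to 7.37 and from 7.11 to 7.31, with 3 of 6 positive.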

How the data were processed

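The authors' deposited value table held log2 signals for 41345 transcript clusters on 6 Affymetrix mouse gene arrays. Per the submitters' processing notes, the signals were computed in Affymetrix Expression Console by RMA. That method subtracts background, equalises the arrays and summarises probes, and it compresses differences of dim clusters. Transcriptome Analysis Console was version 3.0 per the series' design text; no genome build is named there or in the headers. The authors' deposited comparison table held, per the file headers, bi-weight averages in log2, an analysis-of-variance p-value with its adjusted value, and a signed linear fold, kept here as a score. The 34472 clusters listed there were tested, and 6873 without annotation entered an alternative only. Genes were taken by symbol, leaving out clusters with RefSeq accessions of more than 1 gene (GRCm38.p6 table), using the cluster with the highest mean.

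Differences are LPS minus saline from limma 3.58.1 in R 4.3.3 (lmFit, eBayes, group as the only term), with Benjamini-Hochberg adjustment over the 34472 clusters at 0.05. The script was tested on simulated data. No overlap means that all arrays of one group lay above all of the other. The number of arrays limits the precision. The labels call the arrays of a group biological replicates. The members, gene lists and markers were chosen with earlier results of these data known. Genes named from a list were up to 4 with the greatest absolute difference among those without overlap, otherwise the 2 greatest, beside 15 genes named for their roles and the 3 nearest in pattern to each member; 2 genes that these rules give are not reported here.

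Deviations from the group means of same-numbered arrays correlated by 0.27, 0.12 and 0.56 across clusters for numbers 1, 2 and 3. All lay above the criterion of 0.1 for a pairing. Arrays of unlike number passed it too, saline 2 with LPS 1 (0.41) and saline 1 with LPS 2 (0.14). The criterion therefore cannot show that the numbers are pairs. The replicate block was run as an alternative. Other alternatives were each array or both arrays numbered 3 left out, repeated quantile normalization, centring on array medians or on 75 ribosomal protein genes, array weights, a minimum mean of 5, all clusters, and a plain equal-variance test.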

Additional observations from a re-analysis of the deposited data

How the results depend on the processing

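Msn kept its direction in all 15 alternatives (0.87 to 1.08) and Ezr in all 15 (0.35 to 0.78), and neither passed in any. The adjusted p of Msn ran from 0.0683 with array weights to 0.99994 without LPS 2, with 0.173 under the replicate block, which changed no call of a member. With 1 array left out, the difference ran from -0.32 to 0.13 for Rdx and from -0.13 to 0.63 for Nf2, from -0.19 to 0.64 for Ezr against Nf2, and from -0.96 to 0.26 for Rdx against Nf2; the cause was not tested. The other 4 pairs kept their direction in all 11 alternatives. Members without overlap numbered 1 to 2 with 1 array left out and 2 with arrays centred on ribosomal protein genes. Pathway genes without overlap numbered 10, against 13 to 35 with 1 array left out, 46 without both arrays numbered 3, and 6 with centring on ribosomal protein genes. Fewer arrays make overlap rarer, and the share of all clusters without overlap was 6.71% with all arrays, 12.5% to 20.2% with 1 left out, 33.9% without both arrays numbered 3 and 4.06% with centring on ribosomal protein genes. The clusters that passed numbered 1 over all 6 arrays, 0 to 12 with 1 array left out, 0 over all clusters, 0 by the plain test, 1 with repeated quantile normalization, with median centring or above a mean of 5, 2 without both arrays numbered 3, 3 with the block, 6 with centring on ribosomal protein genes and 22 with array weights. Alternative clusters were not run because each symbol had 1 cluster.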
